A study of Mus musculus with 10 samples.

Results

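Doublecortin (Dcx) and the doublecortin-like kinases (Dclk1, Dclk2 and Dclk3) were followed in RNA from mouse dentate gyrus, the part of the hippocampus where granule neurons lie and new neurons are made in adult life. The 4 genes were taken by symbol from the table of 48526 gene identifiers, and each matched 1 identifier. All mice were C57Bl/6 and 8 weeks old, and all had an adeno-associated virus of serotype 9 injected into the dentate gyrus on both sides. In 5 mice the virus encoded Sox11, a SoxC transcription factor of newborn neurons, and in the 5 control mice it encoded green fluorescent protein (GFP). The tissue was microdissected and poly(A) RNA was sequenced. The promoter that drives the viral genes, the cells that took up the virus, the interval between injection and dissection and the sex of the mice are not stated in the sources used here. Libraries are named by the numbers in the table's column names, which are 1, 3, 4, 5 and 6 for GFP and 1, 2, 3, 6 and 7 for Sox11.

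Doublecortin binds along microtubules through a pair of doublecortin domains and stabilizes them, and it is needed for neurons to migrate in the developing brain. In the adult dentate gyrus it is the standard marker of neuroblasts and immature granule neurons and is switched off as they mature. Dclk1 and Dclk2 encode proteins that join such domains to a serine/threonine kinase domain related to the calcium/calmodulin-dependent kinases, and act with doublecortin in migration and in the growth of axons and dendrites. Dclk1 also gives short forms that hold the doublecortin domains alone or the kinase domain alone. Dclk3 encodes the most divergent kinase of the family.

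Depth ranged from 45100154 reads assigned to genes (Sox11 6) to 68769808 (Sox11 3). Normalized counts, the unit used throughout, are reads divided by a scaling factor of the library. The control libraries held 1364 to 1634 normalized counts of Sox11 and those with the Sox11 virus 9803 to 20434, so every library matched its label; viral and endogenous Sox11 reads are summed in these values. The summed level of 6 markers of mature granule neurons, among them Prox1 and Calb1, was 53696 to 75662 normalized counts in the GFP group and 57177 to 75737 in the Sox11 group, so the labelled tissue's defining markers were present in every library. Markers of other cells varied within both groups. The sum of 6 pyramidal neuron markers ran from 13195 to 23498 under GFP and from 13164 to 22941 under Sox11. That of 6 oligodendrocyte markers ran from 75586 to 138770 and from 65383 to 158590. GFP 3 also held choroid plexus RNA: its summed level of 6 choroid plexus markers was 376730 normalized counts, against at most 2288 in any Sox11 library. None of the 4 family members lost or gained its call when GFP 3 alone was left out, except Dclk2 (limma adjusted p = 0.0731).

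In short, Dcx was 3.46 times as abundant in the Sox11 group as in the GFP group, and its kinase relatives changed by far less. Dclk2 was 1.13 times as abundant and passed the test, Dclk3 was 0.829 times as abundant and passed it, and Dclk1 was 1.2 times as abundant and missed it by a narrow margin. A gene passed where the p of limma, fitted to log2(normalized count + 1) and adjusted by Benjamini-Hochberg over the 17007 genes tested, was below 0.05. Of the 4 members, 2 rose and 1 fell, where 19.0% of all tested genes passed in either direction (9.65% higher and 9.36% lower in the Sox11 libraries). For 2 members, Dcx and Dclk2, every Sox11 library lay above every GFP library, and for 0 members below; over all tested genes the groups were separated in this way for 15.9% (8.63% above and 7.29% below). In bulk tissue, a change in the number of cells of a type and a change in RNA per cell cannot be told apart.

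Dcx (ENSMUSG00000031285) lies on the minus strand of chromosome X, from 143855842 to 143933311 (GRCm38), and has 4 protein-coding transcripts in GENCODE M21. Its GFP libraries held 1205 (GFP 1), 1179 (GFP 3), 1301 (GFP 4), 1246 (GFP 5) and 1277 (GFP 6) normalized counts. Its Sox11 libraries held 3698 (Sox11 1), 3430 (Sox11 2), 4242 (Sox11 3), 4567 (Sox11 6) and 5523 (Sox11 7). Every Sox11 library thus lay far above every GFP library. The log2 fold change was 1.77 (SE 0.11, 95% interval 1.53 to 2.01), with a limma adjusted p of 9.18e-06. Only 0.37% of the tested genes had a larger absolute log2 fold change, and Dcx ranked 50 from the top among increases.

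The control level of Dcx was nearly constant between mice, while the level after Sox11 was not. The coefficient of variation was 4.03% in the GFP group, where the counting error of a library averaged 2.91%. In the Sox11 group it was 19.1%, with a counting error of 1.5%. Sox11 1, 2 and 3 held 3430 to 4242 normalized counts of Dcx, below the 4567 and 5523 of Sox11 6 and 7. The log2 fold change of Dcx was 1.66 within the libraries numbered 1 to 3 and 1.98 within those numbered 4 to 7. What lies behind the spread was not tested. The library with the most Sox11, Sox11 3, was not the one with the most Dcx, which was Sox11 7. Sox11 7 had 10552 normalized counts of Sox11, close to the 9803 to 11591 of the Sox11 libraries other than Sox11 3.

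**Figure D1:**
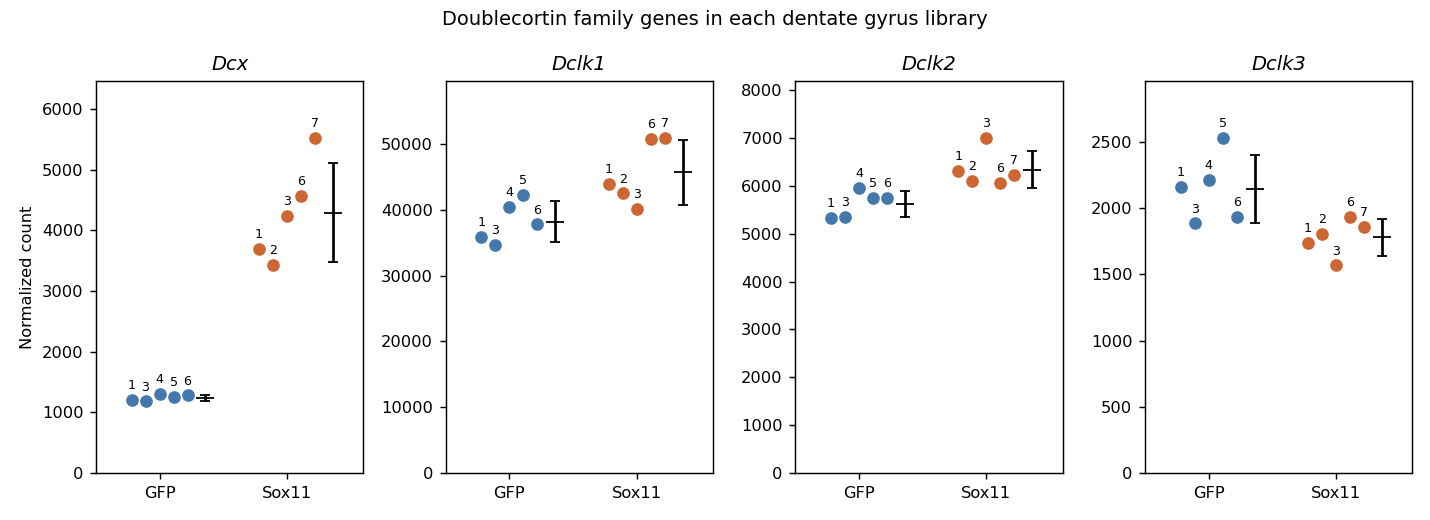
Normalized count (y axis, from 0) of Dcx, Dclk1, Dclk2 and Dclk3 in each library, with the library's number above its point, and mean ± SD to the right of each group (n = 5 each). The Sox11 libraries sit above all GFP libraries for Dcx (3430 to 5523 against 1179 to 1301) and Dclk2, and the groups overlap for Dclk1 and Dclk3.

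The bases before the start sites of Dcx, Dclk1 and Dclk2 are shown because Sox proteins bind short sites through their HMG box. Whether such sites have a part in the changes of these genes was not tested. They come from the RefSeq promoter table (GRCm38.p6), which held 2 windows each for Dcx and Dclk1, 1 for Dclk2 and none for Dclk3. Each run is on the gene's strand and ends before the first annotated start. The capitals mark 4 versions of the core motif of the HMG box, searched on both strands, namely ACAAAG and the variants ACAATG, then TCAAAG and also TCAATG. No match overlapped another.
Dcx, chrX:143933312-143933469, minus strand: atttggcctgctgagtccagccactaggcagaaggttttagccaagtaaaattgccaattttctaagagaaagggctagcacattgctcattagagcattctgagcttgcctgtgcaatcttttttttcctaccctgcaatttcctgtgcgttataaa
Dclk1, chr3:55242114-55242363, plus strand: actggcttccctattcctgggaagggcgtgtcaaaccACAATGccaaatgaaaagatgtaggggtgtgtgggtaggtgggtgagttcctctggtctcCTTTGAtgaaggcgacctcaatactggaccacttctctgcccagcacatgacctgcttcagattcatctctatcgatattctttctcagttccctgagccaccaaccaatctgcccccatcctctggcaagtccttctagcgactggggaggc
Dclk2, chr3:86920885-86921134, minus strand: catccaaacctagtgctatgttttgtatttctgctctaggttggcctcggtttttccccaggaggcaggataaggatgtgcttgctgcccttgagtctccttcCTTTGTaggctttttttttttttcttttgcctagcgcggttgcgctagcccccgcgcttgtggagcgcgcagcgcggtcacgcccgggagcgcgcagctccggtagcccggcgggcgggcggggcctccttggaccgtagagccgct
Dcx site at its downstream start, chrX:143933115-143933144, minus strand: ggagctcagacaACAAAGgcatagagagat

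No such match lay in the Dcx run printed first. The Dcx window of the downstream start, at 143933124, held 1 match, ACAAAG on the gene's strand, shown as the last line. The window at the first start of Dclk1 held 2 matches, ACAATG on the gene's strand and TCAAAG on the opposite strand. That of its internal start held none. The Dclk2 window held 1, ACAAAG on the opposite strand. Of 32851 windows of 300 bases in the table, 44.0% held at least 1 of the 4 motifs, and 18.7% held ACAAAG. A match is a string of letters and not a measured binding site.

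Dclk1 (ENSMUSG00000027797, chromosome 3, 55242364 to 55539068, plus strand) was the most abundant member. Its GFP libraries held 35836 (GFP 1), 34685 (GFP 3), 40416 (GFP 4), 42226 (GFP 5) and 37764 (GFP 6) normalized counts. Its Sox11 libraries held 43928 (Sox11 1), 42488 (Sox11 2), 40174 (Sox11 3), 50818 (Sox11 6) and 50911 (Sox11 7). Of the Sox11 libraries 4 lay above the highest GFP library, and Sox11 3 lay within the GFP range. The log2 fold change was 0.26 (SE 0.08, 95% interval 0.08 to 0.44), with a limma adjusted p of 0.0503. The call depends on the processing: with the division of the libraries into columns numbered 1 to 3 and 4 to 7 as a covariate the change was 0.30 with a limma adjusted p of 0.000971, and over the libraries left out in turn the adjusted p ran from 0.0341 to 0.107. The division goes by column number alone, and no label gives it a meaning. It puts GFP 1 and 3 with Sox11 1, 2 and 3, and GFP 4, 5 and 6 with Sox11 6 and 7. Within the libraries numbered 1 to 3 the log2 fold change was 0.26, and within those numbered 4 to 7 it was 0.34.

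The counts of Dclk1 sum all its forms. GENCODE M21 lists 11 protein-coding transcripts of the gene. Of these, 4 start before a position set upstream of the internal start and 7 start after it. Of the 4, 2 reach the last 10 kb of the gene and 2 end earlier. Forms with the doublecortin domains, with the kinase domain or with both were therefore not separated here.

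Dclk2 (ENSMUSG00000028078, chromosome 3, 86786151 to 86920852, minus strand) showed a small increase with no overlap between the groups. Its GFP libraries held 5327 (GFP 1), 5345 (GFP 3), 5954 (GFP 4), 5745 (GFP 5) and 5758 (GFP 6) normalized counts. Its Sox11 libraries held 6308 (Sox11 1), 6105 (Sox11 2), 7003 (Sox11 3), 6060 (Sox11 6) and 6233 (Sox11 7). The lowest Sox11 library stood just above the highest GFP library. The log2 fold change was 0.17 (SE 0.05, 95% interval 0.06 to 0.29), with a limma adjusted p of 0.0388. The call did not survive the removal of GFP library 1, 3, 5 or 6 or of Sox11 library 1, 2, 3 or 7 (limma adjusted p of 0.0511 to 0.0860). Within the libraries numbered 1 to 3 the log2 fold change was 0.28, and within those numbered 4 to 7 it was 0.08, and neither passed.

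Dclk3 (ENSMUSG00000032500, chromosome 9, 111439081 to 111489118, plus strand) was the member that fell. Its GFP libraries held 2163 (GFP 1), 1884 (GFP 3), 2215 (GFP 4), 2530 (GFP 5) and 1936 (GFP 6) normalized counts. Its Sox11 libraries held 1736 (Sox11 1), 1803 (Sox11 2), 1567 (Sox11 3), 1934 (Sox11 6) and 1855 (Sox11 7). Of the Sox11 libraries 4 lay below the lowest GFP library, and Sox11 6 lay within the GFP range. The log2 fold change was -0.27 (SE 0.08, 95% interval -0.45 to -0.08), with a limma adjusted p of 0.0459. The call did not survive the removal of GFP library 1, 4 or 5 or of Sox11 library 1, 2, 3 or 7 (limma adjusted p of 0.0609 to 0.105), and also in edgeR's quasi-likelihood test on recovered reads (adjusted p = 0.0506). Within the libraries numbered 1 to 3 and 4 to 7 the log2 fold change was -0.25 and -0.22, and neither passed.

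**Figure D2:**
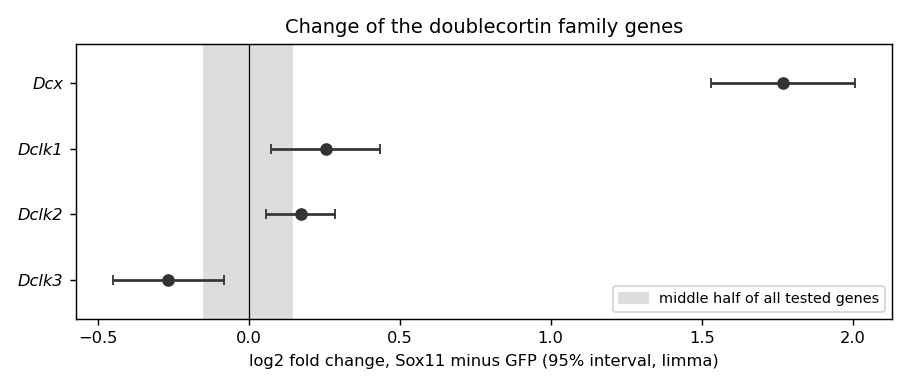
Log2 fold change (x axis, Sox11 minus GFP) of the 4 family genes with limma's 95% interval, over the band between the lower and upper quartile of all tested genes (-0.15 to 0.14). Dcx stands alone at 1.77, with Dclk1 (0.26) and Dclk2 (0.17) at low positive values and Dclk3 at -0.27.

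Whether Dcx and each kinase gene changed by different amounts was tested on their ratio within each library, which does not depend on the scaling between libraries. Per 100 normalized counts of Dclk1 the GFP libraries held 3.26 ± 0.19 of Dcx and the Sox11 libraries 9.38 ± 1.26 (mean ± SD, n = 5 per group). Per 100 of Dclk2 there were 22.1 ± 0.35 and 67.9 ± 13.8, and per 100 of Dclk3 58.5 ± 6.44 and 241.6 ± 43.2. The log2 ratio rose by 1.51 against Dclk1, by 1.60 against Dclk2 and by 2.04 against Dclk3. In all 3 ratios the groups were fully separated, and the two-sided exact permutation p was 0.00794 for each, the smallest that 5 of 10 libraries can give, and 0.00794 after Benjamini-Hochberg adjustment over the 3 ratios. The ratio of Dcx to Dclk2 was even among controls, from 21.7 to 22.6 per 100, and spread from 56.2 to 88.6 in the Sox11 libraries.

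**Figure D3:**
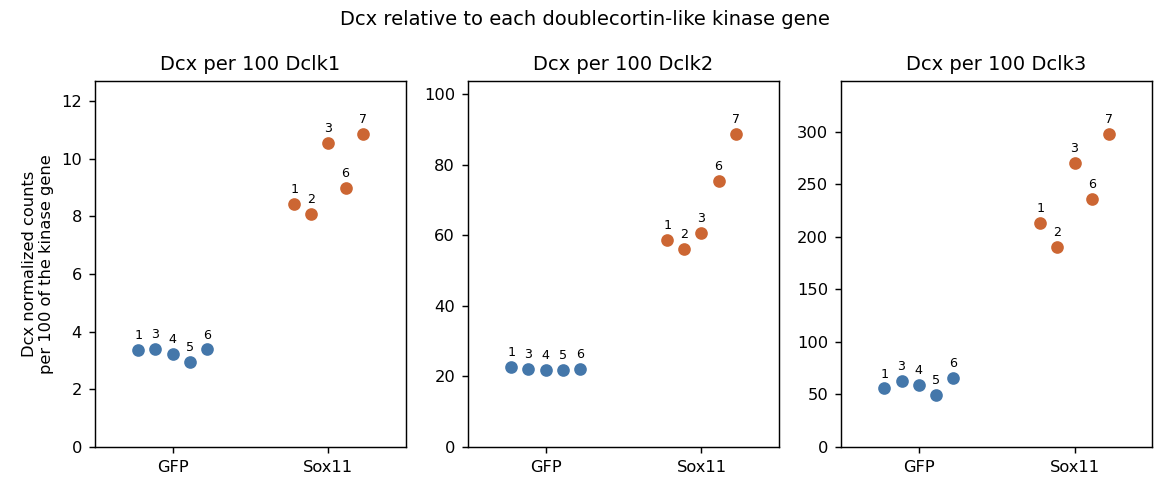
Normalized counts of Dcx per 100 normalized counts of Dclk1, Dclk2 and Dclk3 (y axes, from 0, with a scale of their own) in each GFP and Sox11 library, numbered as in the table. In each panel the Sox11 points lie above all GFP points; for Dclk1 they run from 8.07 to 10.8 against 2.95 to 3.40.

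Per length of exon, the family kept Dclk1 at its head and Dcx at its foot in both groups. In the GFP group the level per kb of exon was 2496 ± 205 normalized counts for Dclk1, 714 ± 85.7 for Dclk3, 533 ± 26.3 for Dclk2 and 98.2 ± 3.96 for Dcx (mean ± SD, n = 5 each). The libraries of neighbours in this order did not overlap: Dclk3 ran from 627 to 842 and Dclk2 from 505 to 564. In the Sox11 group the levels per kb were 2985 ± 322 for Dclk1, 601 ± 36.3 for Dclk2, 592 ± 46.1 for Dclk3 and 339 ± 64.8 for Dcx. Dclk2 (574 to 664) and Dclk3 (522 to 644) then overlapped, and their order was not separated. Lengths are the merged exons of all annotated transcripts, so a gene that uses only part of them has its level per kb understated.

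As a share of the summed level per kb of the 4 genes (mean ± SD, n = 5, GFP first), Dcx made up 2.56% ± 0.15 and 7.48% ± 0.97. Dclk1 made up 65.0% ± 0.63 and 66.0% ± 1.68, Dclk2 13.9% ± 0.69 and 13.4% ± 1.74, and Dclk3 18.6% ± 1.15 and 13.1% ± 0.70. The Dclk1 share lay between 63.3% and 67.8% in every library. The Dclk3 share ran from 17.1% to 19.8% in the GFP libraries and from 12.4% to 14.2% in the Sox11 libraries, with no overlap, and these shares were not tested. In the GFP libraries, the level per kb of Dclk1 exceeded that of 94.6% of 16948 genes, and that of Dcx exceeded 36.4%.

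The genes whose profile over the 10 libraries lay closest to that of Dcx were Igsf9, Slco5a1, Dchs1, Fbn2 and Sh3bp2. Likeness was the root mean square difference of log2(normalized count + 1) over the libraries, each gene centred on its GFP mean, among 14254 other genes whose mean reached 50 normalized counts. It was 0.12 for Igsf9, an immunoglobulin superfamily protein of dendrites, 0.17 for Slco5a1, an organic anion transporter family member, and 0.20 for Dchs1, a large cadherin that pairs with Fat4. Fbn2, which encodes fibrillin 2, and the adaptor gene Sh3bp2 lay at 0.20 and 0.21, where the median over all genes compared was 1.28. Igsf9 had 157 ± 16.3 normalized counts under GFP and 529 ± 77.8 under Sox11, and Dchs1 had 1041 ± 110 and 3500.4 ± 574. Because the measure follows the size of the change, a small value says that these genes rose by about as much as Dcx, with log2 fold changes of 1.58 to 1.88, and little about the spread within a group.

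**Figure D4:**
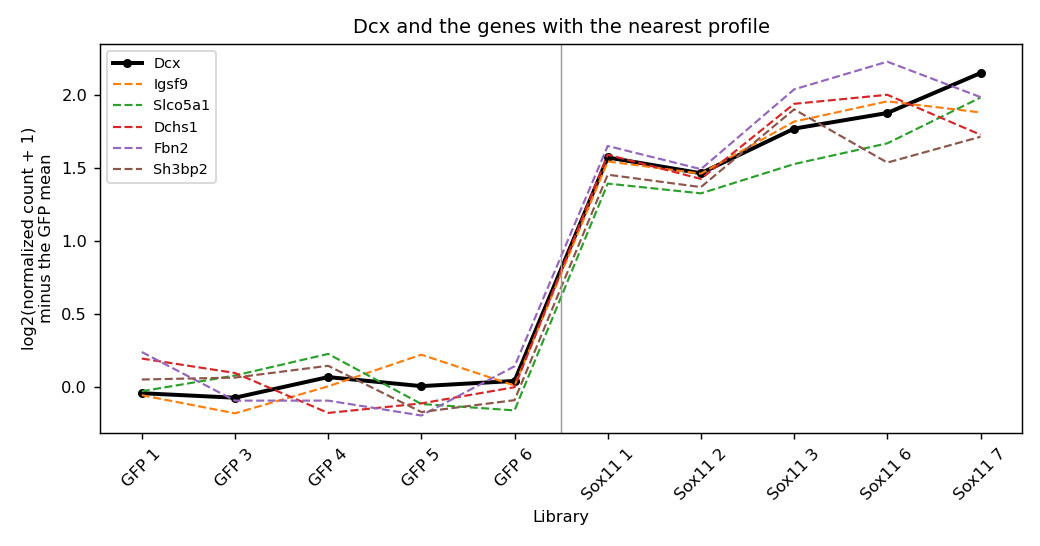
Log2(normalized count + 1) minus the GFP mean (y axis) of Dcx (black) and of the 5 genes with the smallest root mean square difference from it, over the 10 libraries (x axis, with a grey line between the groups). All 6 lie near 0 under GFP and run from 1.33 to 2.23 under Sox11.

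Among other proteins with doublecortin domains, Dcdc2a and Dcdc2b were the ones abundant enough to test. Dcdc2a, a protein of primary cilia, had 516 ± 196 normalized counts under GFP and 375 ± 114 under Sox11, and Dcdc2b had 80.2 ± 12.0 and 90.1 ± 6.66. Of these 2 genes 0 passed in limma, 0 had an unadjusted p below 0.05, and edgeR and DESeq2 on recovered reads called 0. With the division of column numbers as a covariate Dcdc2a passed as lower (-0.60, limma adjusted p = 0.00944). Rp1 stayed between 1.02 and 11.9 normalized counts in every library, Rp1l1 and Dcdc2c were listed at 0 in part of the libraries, and Dcdc1 was not matched.

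Of 12 tested binding partners of doublecortin 2 rose, 1 fell and 9 did not pass, where 19.0% of all tested genes passed, with a median log2 fold change of 0.00 against -0.01 for all genes. Both that rose encode the tubulins on which doublecortin acts. Tubb3, the neuronal beta-tubulin, had 10017 ± 961 normalized counts under GFP and 22345 ± 4264 under Sox11, which is 1.14 higher on the log2 scale (SE 0.12). The alpha-tubulin Tuba1a had 24093 ± 1482 and 45817 ± 7121, which is 0.92 higher (SE 0.10). Only 23.0% of the 31-base words of Tuba1a occur in no other gene, so part of its reads may match other genes as well. Which genes share the rest was not resolved. Usp9x, a deubiquitinase that binds doublecortin, fell by 0.23 on the log2 scale (SE 0.06), a call lost without Sox11 1 (limma adjusted p = 0.0501). Pafah1b1, the lissencephaly protein Lis1, did not pass at a log2 fold change of -0.15, SE 0.06 (limma adjusted p = 0.116).

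Of 13 tested kinases and phosphatases that act on doublecortin 2 rose, 1 fell and 10 did not pass, a share near the 19.0% of all tested genes, with a median log2 fold change of 0.01. Cdk5r1, the p35 activator of the kinase Cdk5, rose by 0.23 in log2 (SE 0.06), from 16113 ± 1290 to 18854 ± 736 normalized counts. Mark1, a microtubule-affinity regulating kinase, rose by 0.22 (SE 0.06), a call that needs each of GFP libraries 1, 3 and 4 and Sox11 libraries 3, 6 and 7 (without one of them, limma adjusted p of up to 0.0788). Mapk9, the kinase Jnk2, fell by 0.24 (SE 0.04), from 11545 ± 308 to 9773 ± 350, with every Sox11 library below every GFP library. Prkaca, a catalytic subunit of protein kinase A, did not pass at a log2 fold change of -0.15, SE 0.05 (limma adjusted p = 0.0546), but passed without GFP 3 (0.0244).

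The list of lissencephaly and neuronal migration genes, which shares Tubb3, Tuba1a, Pafah1b1, Cdk5 and Cdk5r1 with the lists above, had 8 of 22 tested members that rose, 1 that fell and 13 that did not pass, where 9.65% of all tested genes rose and 9.36% fell. Its median log2 fold change was 0.08. Tubb2b, a beta-tubulin mutated in cortical malformations, rose by 1.25 in log2 (SE 0.11), from 9221 ± 1126 to 21918 ± 3112 normalized counts, with 56.9% of its words its own. Flna, the actin cross-linker filamin A, rose by 1.11 (SE 0.25), from 4293 ± 1808 to 8636 ± 775, but by 0.48 within the libraries numbered 1 to 3 (limma adjusted p = 0.0573) and by 1.52 within those numbered 4 to 7. GFP 1 and GFP 3 held 5926 and 6518 normalized counts of Flna and the other GFP libraries 2551 to 3541. Pafah1b3, a catalytic subunit of the enzyme that holds Lis1, rose by 0.74 (SE 0.15), Dab1, the adaptor of reelin signalling, by 0.36 (SE 0.08) and Tubg1, a gamma-tubulin, by 0.20 (SE 0.04). Vldlr, a reelin receptor, fell by 0.22 (SE 0.07), a call that needs each of GFP libraries 3, 4, 5 and 6 and Sox11 libraries 1, 2 and 3 (without one of them, limma adjusted p of up to 0.0882). Within the libraries numbered 4 to 7 the log2 fold change of Vldlr was -0.11 (limma adjusted p = 0.304). Without GFP 3 the list had 8 that rose and 0 that fell.

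Of 13 tested genes on the list of calcium/calmodulin-dependent kinases, which includes Camkk1 and Camkk2, 3 fell, 1 rose and 9 did not pass. Over all tested genes 9.36% fell and 9.65% rose, and the list's median log2 fold change was -0.13. Camk1d had 19920 ± 2108 normalized counts under GFP and 12462 ± 459 under Sox11, with a log2 fold change of -0.67 (SE 0.07). Camkk1, a kinase that activates the Camk1 group, had 16778 ± 1883 and 12205 ± 540, with a log2 fold change of -0.45 (SE 0.07). The groups did not overlap for either gene. Camk1g rose by 0.54 (SE 0.13), from 763 ± 100 to 1119 ± 189, with 0.76 within the libraries numbered 1 to 3 and 0.27 within those numbered 4 to 7 (limma adjusted p = 0.345). Camk1 fell by 0.32 (SE 0.10), a call that needs each of GFP libraries 1, 3 and 6 and Sox11 libraries 3, 6 and 7 (without one of them, limma adjusted p of up to 0.0863). Without GFP 3 the list had 1 that rose and 4 that fell.

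**Figure D5:**
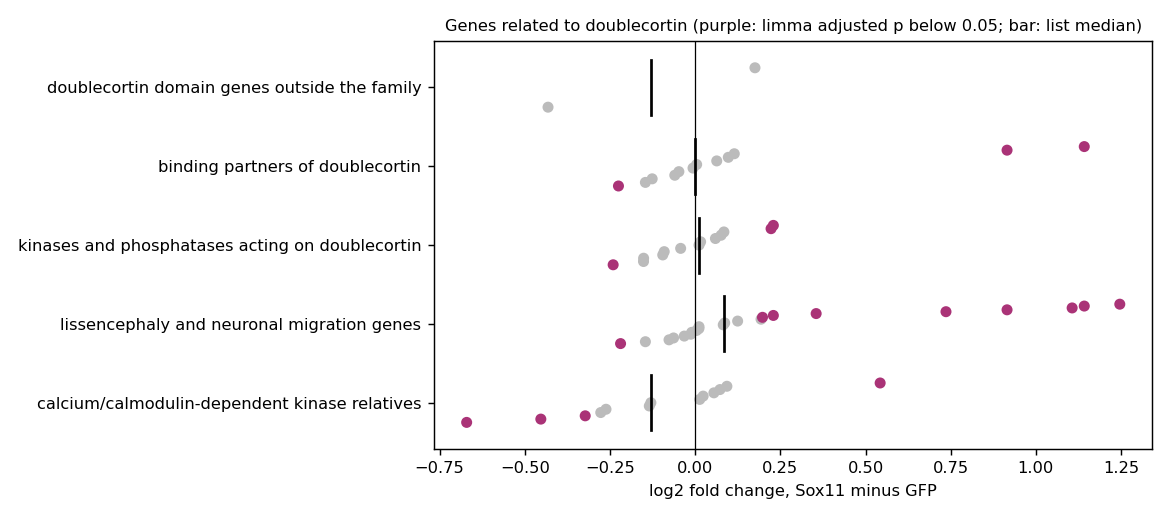
Log2 fold change (x axis, Sox11 minus GFP) of each tested gene in the 5 lists of genes related to doublecortin (y axis), purple where limma's adjusted p was below 0.05 and grey elsewhere, with a black bar at the list's median. The 3 tubulins Tubb2b, Tubb3 and Tuba1a (0.92 to 1.25) and Flna (1.11) lie to the right, and Camk1d (-0.67) and Camkk1 (-0.45) to the left.

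Markers of cell types were read beside Dcx, where 9.65% of all tested genes rose and 9.36% fell. Of 14 tested newborn neuron markers 8 rose, 0 fell and 6 did not pass, and 8 rose and 0 fell in edgeR and in DESeq2 on recovered reads, with 7 that rose without GFP 3. The list leaves out Dcx and shares Tubb3 and Tubb2b with the migration genes. Their summed level was 47300 to 61226 normalized counts in the GFP libraries and 94809 to 122080 in the Sox11 libraries. Stmn1, a microtubule-destabilizing protein with 77.6% of its words its own, rose by 1.52 in log2 (SE 0.08). Cd24a, a surface glycoprotein, rose by 3.78 (SE 0.21), and Dpysl5, a collapsin response mediator protein, by 0.99 (SE 0.06). The 6 that did not pass were Neurod1 (0.01), Calb2 (0.06), Gap43 (0.09), Igfbpl1 (0.16), Sox4 (-0.17) and Neurod4 (-1.46, SE 1.07). Of 9 tested markers of dividing progenitors 0 passed in limma, edgeR or DESeq2, with Pcna at a log2 fold change of 0.13 (SE 0.05), Eomes at -0.33 (SE 0.22) and Top2a at -0.20 (SE 0.14). Their summed level was 2270 to 2367 in the GFP group and 2219 to 2568 in the Sox11 group. Of 6 markers of neural stem cells 2 rose, Fabp7 by 0.40 (SE 0.09) and Sox9 by 0.29 (SE 0.08), the latter a call that needs each of GFP libraries 4, 5 and 6 and Sox11 libraries 2, 3 and 7 (without one of them, limma adjusted p of up to 0.0639), and Hopx did not pass (0.14, SE 0.06). Sox9 stood at 0.19 within the libraries numbered 1 to 3 (limma adjusted p = 0.286).

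Of 6 mature granule neuron markers 1 fell, where 9.36% of all tested genes fell and 9.65% rose. It was C1ql2, by 0.41 on the log2 scale (SE 0.12). Its call needs each of GFP libraries 1, 5 and 6 and Sox11 libraries 1, 2, 3 and 7 (without one of them, limma adjusted p of up to 0.0866). Prox1 (0.20, SE 0.15) and Calb1 (0.16, SE 0.15) did not pass. Of 8 interneuron markers 3 fell, Lamp5 by 0.73 (SE 0.08), Npy by 0.42 (SE 0.10) and Gad2 by 0.30 (SE 0.08), and the call of Gad2 needs each of GFP libraries 4, 5 and 6 and Sox11 libraries 6 and 7 (without one of them, limma adjusted p of up to 0.0595). Within the libraries numbered 1 to 3 the log2 fold change of Gad2 was -0.08 (limma adjusted p = 0.492), and within those numbered 4 to 7 it was -0.53 (limma adjusted p = 0.00223). Of 6 astrocyte markers 2 rose, Gfap by 0.46 (SE 0.08) and Aldh1l1 by 0.22 (SE 0.05), and Slc1a3 did not pass (0.08, SE 0.09). In 7 lists, those of dividing progenitors, pyramidal neurons, oligodendrocytes, their precursors, microglia, endothelium and choroid plexus, 0 of 41 tested genes passed in limma, 6 had an unadjusted p below 0.05, edgeR called 3 and DESeq2 called 1. The edgeR calls were Kl, Prlr and the microglial gene C1qa, and the DESeq2 call was C1qa. DESeq2 gave no adjusted p for Kl (log2 fold change -2.39), so its count leaves Kl undecided. In the choroid plexus list the count of 0 rests on GFP 3: without it Kl (log2 fold change -1.09, limma adjusted p = 0.000176) and Prlr (-1.42, limma adjusted p = 0.00476) passed as lower, and every Sox11 library lay below every GFP library for both. The other GFP libraries held 1448 to 1722 normalized counts of Kl and 80 to 1312 of Ttr, against 13733 and 345861 in GFP 3. Which cells gave the Kl and Prlr reads of those libraries was not tested. With the division as a covariate 3 of the 41 passed, namely Pcna, Kl and Prlr. The summed levels of all these lists overlapped between the groups, and so did those of the interneuron list, at 34583 to 41293 normalized counts under GFP and 27616 to 34627 under Sox11. No listed marker was at 0 in every library. The part of these cell types in the changes of Dcx, Dclk2 and Dclk3 was not tested.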

How the data were processed

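Poly(A)-selected, strand-marked RNA libraries from microdissected dentate gyrus of 5 GFP and 5 Sox11 mice were used, per the labels' protocols. Among the tools in the submitters' processing notes are STAR 2.5.2a, featureCounts 1.5.1 and DESeq2 1.12.3, with the build GRCm38. Strand setting, annotation release and treatment of reads with several matches are not stated in the sources used here. The table the authors deposited holds normalized counts (unit: signal), in which the steps between low values give back the reads: 100% of values above 0 came out whole within 0.01 reads. Column names were matched to a group but not to a sample, because their numbers are not those in the titles. Replicates are separate mice per the series' design text, and the closest pair in a group differed beyond sampling noise (chi-square per degree of freedom 10.8).

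Symbols, coordinates and exons came from GENCODE M21, which matched 48058 identifiers. Of the 31-base words in the transcripts of each family member at least 99.1% occur in no other gene, and no word is shared between members; this share is printed for other genes where it is low. Genes averaging 10 or more normalized counts over all libraries were fitted with limma 3.58.1 (trend, robust) in R 4.3.3 on log2(normalized count + 1), where the change of a low gene is understated. The script was first tested on simulated data with 50 genes changed at each of 4 sizes. It recovered 12% of 1.2-fold changes, 56% of 1.5-fold, 84% of 2-fold and 94% of 4-fold, and called 10 unchanged genes. Far fewer genes were changed in the simulation than the 3234 that passed in the data, which makes its adjusted p stricter. Its recovery is also an average over genes of all levels. It therefore does not give the recovery of the kinase genes in these data. Ratios were tested by exact permutation over libraries (scipy 1.17.1). The alternatives tried were a pseudocount of 0.5 or 8, a filter at 50 or none, TMM scaling, edgeR 4.0.16 and DESeq2 1.42.0 on recovered reads, the division of column numbers as a covariate, and each library left out; fits within each division and list counts under other settings were chosen after seeing the data.

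The members, the gene lists and the tests were chosen with earlier results of these data known. Genes named are the 4 members, Sox11, the 4 genes of lowest p and any that passed in each pathway list, the 3 of lowest p in each cell list (shown for lists with a call and for dividing progenitors), and the 5 nearest profiles to Dcx. The pathway lists are doublecortin domain genes, binding partners, kinases and phosphatases, lissencephaly and migration genes, and calcium/calmodulin-dependent kinases. The newborn neuron markers that did not pass were named as well. Pvrl3 was matched as Nectin3.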

Additional observations from a re-analysis of the deposited data

Results flagged for a closer look

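A library standing far from the other 4 of its group was looked for in 138 groups of 5 values, of which chance flags about 1 in 20, and 8 were found. Among the family members this held for Dclk2 in Sox11 3, at 7003 normalized counts against 6060 to 6308 in the other Sox11 libraries. Without Sox11 3 the log2 fold change of Dclk2 was 0.14 (limma adjusted p = 0.0785). Sox11 stood at 20434 in Sox11 3, against 9803 to 11591 in the others of its group, and at 1634 in GFP 5, against 1364 to 1399. The choroid plexus markers Ttr (345861), Kl (13733) and Prlr (5788) were far higher in GFP 3 than in the other GFP libraries. Prox1 was at 20946 in GFP 5 against 13354 to 15142, and Usp9x at 10746 in GFP 1 against 12036 to 12541.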

How the results depend on the processing

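Dcx kept its direction and its call under the other settings tried, with log2 fold changes of 1.66 to 1.98, and of 1.67 to 1.84 with each library left out. The 3 ratios of Dcx to a kinase gene kept theirs with 1 or 8 added to both values and with each library left out, where the exact permutation p was 0.0159, the smallest that 9 libraries can give. Dclk1 passed with a filter at a mean of 50 (0.26), with TMM scaling (0.26), in edgeR (0.27) and DESeq2 (0.26), with the division of column numbers as a covariate (0.30) and within columns 4 to 7 (0.34). Dclk2 did not pass without a filter (0.17) or within columns 1 to 3 (0.28) or 4 to 7 (0.079). Dclk3 did not pass without a filter (-0.27), with TMM scaling (-0.26), in edgeR (-0.26) or within columns 1 to 3 (-0.25) or 4 to 7 (-0.22). With each library left out the changes ran from 0.21 to 0.30 for Dclk1, 0.14 to 0.19 for Dclk2 and -0.31 to -0.20 for Dclk3, and no member changed direction under any setting run. Within a division fewer libraries enter the fit; for the other settings the cause was not tested. In all 3234 genes passed, 3272 in edgeR, 4080 in DESeq2, 4048 with the division as a covariate and 1012 within columns 1 to 3. Of the 16 pathway genes that passed, 9 also did within columns 1 to 3 and 9 within columns 4 to 7, and 16 kept their direction in each. Of the 13 kinases and phosphatases DESeq2 called 2 higher and 3 lower, against 2 and 1. No paired analysis was possible because the column numbers are not those of the sample titles. For the members, counting error averaged at most 2.91% per library, below the coefficient of variation in each group, which includes it. The 2.91% was that of Dcx in the GFP group, where the coefficient of variation was 4.03%.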

Other observations

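The group means of Dclk1 and Dclk3 differed in opposite directions, and the ratio of the genes within each library was chosen after its values were seen and was not tested. Per 100 normalized counts of Dclk1 there were 5.61 ± 0.39 of Dclk3 in the GFP group (5.13 to 6.03) and 3.91 ± 0.22 in the Sox11 group (3.64 to 4.24; mean ± SD, n = 5 each), with no overlap, whereas each gene alone overlapped between the groups. Per 100 of Dclk1 there were 14.8 ± 0.71 and 14.1 ± 2.2 of Dclk2, which overlapped. Rp1l1, a doublecortin domain gene of the retina, was at 69.1 normalized counts in GFP 3, the library with choroid plexus RNA, and at most 15.9 in any other library.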
